A study of Mus musculus with 9 samples.

Results

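Kinesins are motor proteins that use ATP to walk along microtubules. The transcripts described here are all symbols made of Kif and a digit, together with Kifc1, Kifc2 and Kifc3, in RNA-seq of whole mouse kidney. The rule found 37 genes among the 22637 symbols counted, and all 37 passed the filter on low counts, as did 17315 symbols in all. They were sorted by known role into 10 mitotic motors (7 of the spindle and chromosomes, 3 of cytokinesis), 14 transport motors, 10 motors of the cilium and centriole and 3 others. The study compared kidneys of 3 groups with 3 libraries each, all from mice of the 129X1/SvJ strain at 9 weeks of age: Col4a3 -/- mice given antimiR-21, which blocks the microRNA miR-21 (KO_antimiR21), Col4a3 -/- mice given PBS (KO_PBS), and wild-type mice with no treatment (WT). Both knockout groups lack Col4a3, which encodes a type IV collagen chain of the glomerular basement membrane, and they serve as a model of Alport syndrome, an inherited kidney disease. The labels give no injection for WT, so genotype and injection cannot be told apart. By Y-linked transcripts all knockout libraries were male and only WT 2 of the WT libraries was, so genotype and sex can hardly be told apart. The WT libraries came from mice of both sexes, but the labels do not state that each library is 1 mouse, and the p-values reflect the spread between samples alone, which may in part be technical.

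Mitotic kinesins build the spindle, move and align chromosomes and place the cleavage furrow, and most of them are made only in cells that are about to divide. Transport kinesins carry vesicles, organelles and RNA towards their place in the cell at all times, and several are best known from neurons. A further set drives trains along the cilium or trims the microtubules at its base and tip. Genes of late cell division in mammals often carry a cell cycle homology region (CHR) and CCAAT boxes near the start of transcription.

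The promoter sequences are shown because the mitotic and transport motors differed in these letters as well as in their transcript levels. Promoters of 300 bases were found for 29 of the 37 kinesins in RefSeq (GRCm38.p6). Each sequence below runs 5′ to 3′ on the strand of its gene, with 80 bases before the start and 30 after it, and capitals mark TTTGAA (the CHR) and CCAAT, each on either strand (TTCAAA and ATTGG on the opposite one). The first 6 are the mitotic motors with a CHR in these 110 bases, out of 9 with a promoter, so they do not stand for all mitotic motors. Kif2c and Kif14, not shown, had a CHR only further upstream, 103 and 228 bases before the start. Kif1c is a transport motor and Kif3a a motor of the cilium.
Kif11 (chr19:37376302-37376411, plus strand): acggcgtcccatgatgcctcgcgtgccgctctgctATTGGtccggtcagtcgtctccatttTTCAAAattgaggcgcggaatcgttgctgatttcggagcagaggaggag
Kif22 (chr7:127042391-127042500, minus strand): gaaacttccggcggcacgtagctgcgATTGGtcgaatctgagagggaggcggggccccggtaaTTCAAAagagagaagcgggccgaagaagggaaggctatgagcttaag
Kif15 (chr9:122951001-122951110, plus strand): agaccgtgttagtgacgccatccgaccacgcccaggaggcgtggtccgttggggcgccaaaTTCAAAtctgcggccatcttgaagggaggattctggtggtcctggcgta
Kif4 (chrX:100625985-100626094, plus strand): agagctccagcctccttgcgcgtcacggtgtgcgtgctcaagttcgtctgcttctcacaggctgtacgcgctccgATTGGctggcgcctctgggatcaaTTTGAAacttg
Kifc1 (chr17:33890604-33890713, minus strand): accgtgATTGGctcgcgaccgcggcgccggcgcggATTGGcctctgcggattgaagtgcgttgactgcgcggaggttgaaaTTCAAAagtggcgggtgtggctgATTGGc
Kif23 (chr9:61946770-61946879, minus strand): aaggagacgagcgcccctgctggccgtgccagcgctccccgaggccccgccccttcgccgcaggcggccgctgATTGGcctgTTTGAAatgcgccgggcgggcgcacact
Kif1c (chr11:70700468-70700577, plus strand): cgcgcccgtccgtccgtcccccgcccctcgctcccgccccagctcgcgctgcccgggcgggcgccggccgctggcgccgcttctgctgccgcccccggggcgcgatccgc
Kif3a (chr11:53567289-53567398, plus strand): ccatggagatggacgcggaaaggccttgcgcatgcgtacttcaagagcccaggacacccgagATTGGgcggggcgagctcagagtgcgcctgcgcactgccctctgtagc
In these 110 bases both motifs were present in 5 of 9 mitotic motors (55.6%), in 0 of 8 transport motors and in 1.28% of the 27025 genes with a promoter. Kif11 and Kif22 had the CHR 19 and 17 bases before the start, each with a CCAAT box further upstream. Kif15 had the CHR but no CCAAT in its 300 bases. Kif1c held neither motif, and Kif3a held a CCAAT box only. Over all 300 bases the CHR was present in 8 of 9 mitotic motors (88.9%) and in 1 of 8 transport motors (12.5%), against 20.2% of all promoters. The transport motor was Kif1a, with a CHR 44 bases before 1 of its annotated starts. CCAAT was present in 6 of 9 mitotic motors, 1 of 8 transport motors and 41.1% of all promoters. Motors of the cilium and centriole held CCAAT about as often as mitotic ones, in 5 of 9, but the CHR in 1 of 9. Of the 3 other motors, Kif26b held both motifs within the 110 bases. No CHR match overlapped a CCAAT match in the kinesins. A match is a run of letters and was not tested as a binding site.

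The libraries held 26448275 to 31786624 expected counts each. Levels are given as CPM, the count as a part of the TMM-scaled library total in units of 1e-06, and fold changes as log2 estimate ± SE from edgeR's quasi-likelihood test. A gene was called at an adjusted p under 0.05 (Benjamini-Hochberg over all 17315 genes). Col4a3 stood at 70.6 to 138 CPM in KO_antimiR21, 44.3 to 94.3 CPM in KO_PBS and 257 to 371 CPM in WT, and the deleted stretch of the gene was not measured apart. Markers of the proximal tubule, thick ascending limb, collecting duct and podocyte were present in all 9 libraries. Transcripts of the Y chromosome were near 0 in WT 1 and WT 3, which are called female here, and at 102 to 118 CPM in sum in the other 7 libraries, called male. The 3 WT libraries and KO_PBS 1 and 2 carry the code L4 in the deposited names, and KO_PBS 3 and the 3 KO_antimiR21 libraries the code L5, whose meaning is not given in the sources used here.

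Mitotic kinesins rose in the kidneys of both knockout groups, while most transport kinesins, like most genes, were not called. In KO_antimiR21 against WT, 8 of 10 mitotic and 2 of 14 transport motors were higher and 0 of either lower. In KO_PBS against WT, 9 of 10 mitotic and 2 of 14 transport motors were higher, and 1 transport motor was lower. Over all genes tested, 6.72% were called higher and 0.427% lower in KO_antimiR21 against WT. In KO_PBS against WT 14.6% were called higher and 9.85% lower. The transport motors called higher were 14.3% in each comparison, so in KO_PBS their share was close to that of all genes. The median log2 fold change of the mitotic motors was 2.60 in KO_antimiR21 and 2.78 in KO_PBS, each against WT. That of the transport motors was -0.22 in KO_antimiR21 and -0.23 in KO_PBS, and that of all genes -0.04 in KO_antimiR21 and -0.03 in KO_PBS. DESeq2 and limma gave the same counts of mitotic and transport motors in both comparisons, which share the WT libraries. The roles were assigned with earlier results of these data known, so the counts by role are descriptive. Kif2a, which also works at spindle poles, was placed among the other motors. Its log2 fold change was 0.03 in KO_antimiR21 and 0.15 in KO_PBS, each against WT.

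**Figure D1:**
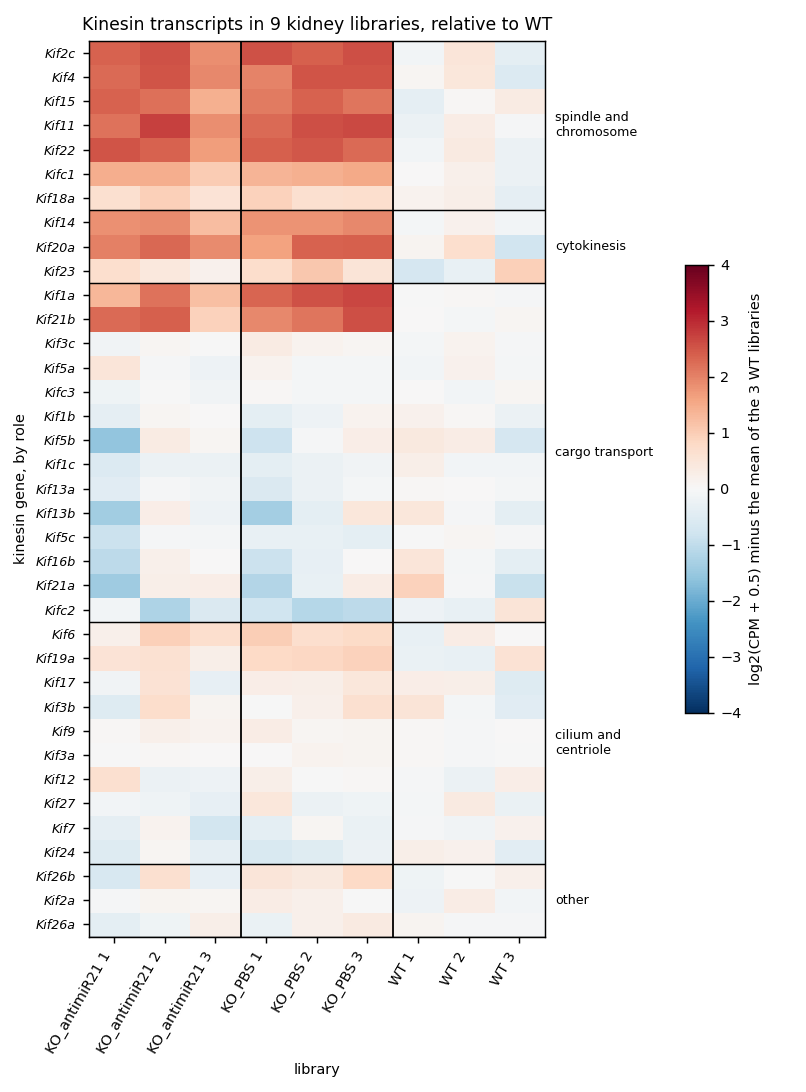
Level of each kinesin (rows, by role) in each library (columns, KO_antimiR21, KO_PBS, then WT), as log2(CPM + 0.5) minus the mean of the 3 WT libraries, with red above and blue below WT. The block of mitotic motors is red across the 6 knockout libraries, as are Kif1a and Kif21b among the transport motors, and Kif23 is highest in WT 3 among the WT libraries.

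Among the motors that build the spindle, Kif11 slides antiparallel microtubules and pushes the spindle poles apart. Kif11 had 7.60, 11.3 and 5.99 CPM in KO_antimiR21 1, 2 and 3, 8.06, 10.2 and 10.7 CPM in KO_PBS 1, 2 and 3, and 1.01, 1.68 and 1.21 CPM in WT 1, 2 and 3. Every knockout library stood above every WT library, and the 2 knockout groups overlapped. The log2 fold change was 2.67 ± 0.31 in KO_antimiR21 against WT (edgeR adjusted p = 0.00418) and 2.88 ± 0.31 in KO_PBS against WT (edgeR adjusted p = 0.00135). Kif15, which helps Kif11 to keep the spindle bipolar, had 4.97, 4.45 and 2.39 CPM in KO_antimiR21 1, 2 and 3, 4.08, 5.01 and 4.22 CPM in KO_PBS 1, 2 and 3, and 0.338, 0.602 and 0.845 CPM in WT 1, 2 and 3. Again the knockout libraries all lay above the WT libraries, with KO_antimiR21 3 the lowest of the 6. Its log2 fold change was 2.71 ± 0.40 in KO_antimiR21 against WT (edgeR adjusted p = 0.00539) and 2.89 ± 0.40 in KO_PBS against WT (edgeR adjusted p = 0.00202).

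Kifc1, a motor that walks to the minus end and gathers spindle fibres at the poles, was the mitotic motor of the spindle with the most counts in WT. It had 12.5, 12.2 and 8.97 CPM in KO_antimiR21 1, 2 and 3, 11.5, 12.1 and 12.8 CPM in KO_PBS 1, 2 and 3, and 4.22, 4.93 and 3.50 CPM in WT 1, 2 and 3. The groups did not overlap with WT, but the rise was smaller on the log2 scale than that of Kif11, at 1.41 ± 0.20 in KO_antimiR21 against WT (edgeR adjusted p = 0.00528) and 1.52 ± 0.20 in KO_PBS against WT (edgeR adjusted p = 0.00181). Kif2c, which removes tubulin from microtubule ends at the centromere, had 5.59, 6.38 and 3.82 CPM in KO_antimiR21 1, 2 and 3, 6.33, 5.64 and 6.49 CPM in KO_PBS 1, 2 and 3, and 0.591, 1.16 and 0.402 CPM in WT 1, 2 and 3. The lowest knockout library, at 3.82 CPM, lay well above the highest WT library, at 1.16 CPM. Among the mitotic motors it had the highest log2 fold change, 2.86 ± 0.39 in KO_antimiR21 against WT (edgeR adjusted p = 0.00458) and 3.09 ± 0.39 in KO_PBS against WT (edgeR adjusted p = 0.00163).

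The chromosome arms carry motors of their own. Kif22, which pushes the arms towards the spindle equator, had 10.8, 9.57 and 5.70 CPM in KO_antimiR21 1, 2 and 3, 9.81, 10.6 and 8.88 CPM in KO_PBS 1, 2 and 3, and 1.31, 2.01 and 1.17 CPM in WT 1, 2 and 3. Kif4, which binds chromosome arms and later the overlapping microtubules of the midzone, had 4.97, 5.99 and 3.82 CPM in KO_antimiR21 1, 2 and 3, 4.06, 6.08 and 6.12 CPM in KO_PBS 1, 2 and 3, and 0.717, 1.08 and 0.282 CPM in WT 1, 2 and 3. In both genes the knockout libraries lay above all WT libraries, and KO_antimiR21 3 was the lowest knockout library. The log2 fold change of Kif22 was 2.54 ± 0.31 in KO_antimiR21 against WT (edgeR adjusted p = 0.00418) and 2.70 ± 0.31 in KO_PBS against WT (edgeR adjusted p = 0.00135). That of Kif4 was 2.82 ± 0.44 in KO_antimiR21 against WT (edgeR adjusted p = 0.00673) and 2.96 ± 0.44 in KO_PBS against WT (edgeR adjusted p = 0.00264).

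Kif18a, which damps the swings of chromosomes at the equator, fell outside the rule for printed values and is given because its call differed between the comparisons. It had 2.75, 3.54 and 2.57 CPM in KO_antimiR21 1, 2 and 3, 3.48, 2.77 and 2.86 CPM in KO_PBS 1, 2 and 3, and 1.81, 1.97 and 1.13 CPM in WT 1, 2 and 3. The knockout groups again did not overlap with WT, but the gap between them was narrow. On the log2 scale its change was 0.85 ± 0.28 in KO_antimiR21 against WT (edgeR adjusted p = 0.120) and 0.89 ± 0.28 in KO_PBS against WT (edgeR adjusted p = 0.0472), so Kif18a was called in KO_PBS only, and the difference between the knockout groups was -0.04 ± 0.27 (edgeR adjusted p = 0.991). The call in KO_PBS was absent in 15 of 19 alternatives, among them each of the 9 fits without 1 library, where the adjusted p over all alternatives ran from 0.0166 to 0.376.

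Of the 3 motors of cytokinesis, 2 rose in both knockout groups. Kif14, which holds citron kinase at the midbody, had 2.44, 2.58 and 1.47 CPM in KO_antimiR21 1, 2 and 3, 2.38, 2.40 and 2.70 CPM in KO_PBS 1, 2 and 3, and 0.295, 0.441 and 0.282 CPM in WT 1, 2 and 3. Kif20a, which brings the Aurora B complex to the midzone, had 11.7, 14.4 and 10.9 CPM in KO_antimiR21 1, 2 and 3, 8.71, 15.1 and 15.6 CPM in KO_PBS 1, 2 and 3, and 2.74, 4.33 and 1.29 CPM in WT 1, 2 and 3. Neither gene's knockout libraries overlapped with WT, although the WT libraries themselves lay between 1.29 and 4.33 CPM for Kif20a. Kif14 was 2.66 ± 0.33 in KO_antimiR21 against WT (edgeR adjusted p = 0.00425) and 2.86 ± 0.33 in KO_PBS against WT (edgeR adjusted p = 0.00139) on the log2 scale. Kif20a was 2.14 ± 0.41 in KO_antimiR21 against WT (edgeR adjusted p = 0.0148) and 2.23 ± 0.41 in KO_PBS against WT (edgeR adjusted p = 0.00620), and its call in KO_antimiR21 was absent without WT 1 (2.16, edgeR adjusted p = 0.0532) and without KO_antimiR21 2 (2.03, edgeR adjusted p = 0.0609).

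Kif23, the motor subunit of centralspindlin, which bundles midzone microtubules with Racgap1, carried both promoter motifs and was called in neither comparison. It had 14.6, 12.2 and 10.3 CPM in KO_antimiR21 1, 2 and 3, 15.0, 19.6 and 13.1 CPM in KO_PBS 1, 2 and 3, and 5.49, 7.26 and 17.9 CPM in WT 1, 2 and 3. WT 3 stood above the other 2 WT libraries and above every knockout library but KO_PBS 2, so WT overlapped with both knockout groups. In edgeR the log2 fold change was 0.27 ± 0.40 in KO_antimiR21 against WT (edgeR adjusted p = 0.774) and 0.64 ± 0.40 in KO_PBS against WT (edgeR adjusted p = 0.293). Without WT 3 it was 0.95 in KO_antimiR21 against WT (edgeR adjusted p = 0.0938) and 1.29 in KO_PBS against WT (edgeR adjusted p = 0.0182).

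**Figure D2:**
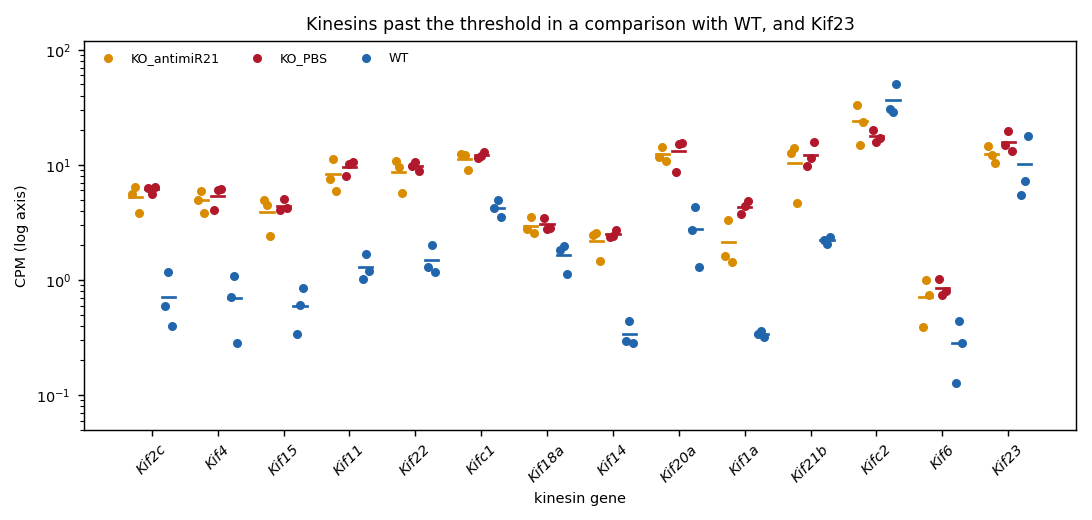
CPM (log axis) of the kinesins called in a comparison with WT, and of Kif23, with 1 point per library and a bar at the mean of the 3 libraries of KO_antimiR21, KO_PBS and WT. For 9 mitotic motors the knockout points lie above all WT points, while WT 3 lies at 17.9 CPM for Kif23 within the range of KO_PBS.

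The share of all kinesin counts that came from mitotic motors was 6.33%, 6.31% and 4.64% in KO_antimiR21 1, 2 and 3, 6.13%, 7.17% and 6.05% in KO_PBS 1, 2 and 3, and 1.32%, 2.10% and 2.23% in WT 1, 2 and 3. In WT 3, Kif23 alone held 17.9 of the 28.0 CPM of the mitotic motors, although WT 3 was the lowest WT library for 7 of 10 of them. KO_antimiR21 3 was the lowest library of its group for 10 of 10 mitotic motors, and WT 2 the highest of its group for 8 of 10. The groups did not overlap with WT for 9 of 10 mitotic motors in either knockout group, which occurred in the higher direction for 14.6% of all genes in KO_antimiR21 and 22.6% in KO_PBS. With sex as a covariate, or with the male libraries alone (WT 2 as the single WT library, assumed to vary like the other groups), edgeR called 0 mitotic motors and 0 genes in either comparison with WT. At an unadjusted p under 0.05 there were then, with the covariate, 8 mitotic motors and 2115 genes in KO_antimiR21 against WT and 8 and 4389 in KO_PBS against WT. Among males these were 9 mitotic motors and 2192 genes in KO_antimiR21 and 9 and 4396 in KO_PBS. All knockout libraries were male, so the fit with the covariate also set them against WT 2 alone. These settings are therefore not separate checks. The median log2 fold change of the mitotic motors among males was 2.18 in KO_antimiR21 and 2.32 in KO_PBS. Within the libraries of code L4, 8 of 10 mitotic motors were called in KO_PBS against WT, with a median of 2.79. KO_antimiR21 and WT share no code, so code and group cannot be told apart there.

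Most genes that work beside the mitotic motors rose with them, where 6.72% of all genes were called higher in KO_antimiR21 and 14.6% in KO_PBS. Of 22 such partners, 18 were called higher and 0 lower in KO_antimiR21 against WT, with a median log2 fold change of 2.44, and 19 higher and 1 lower in KO_PBS against WT, with a median of 2.51. Racgap1, the partner of Kif23 in centralspindlin, was at 1.81 in KO_antimiR21 and 1.90 in KO_PBS, each against WT. Cdc20, which activates the ligase that starts anaphase, was at 2.57 in KO_antimiR21 and 2.62 in KO_PBS, and Cdca8, a subunit of the Aurora B complex, at 2.16 in KO_antimiR21 and 2.46 in KO_PBS. The edgeR adjusted p of each was 0.00418 in KO_antimiR21 and 0.00135 in KO_PBS. The 1 lower gene was Cit, citron kinase, the partner of Kif14 (log2 fold change -1.26 in KO_PBS against WT, edgeR adjusted p = 0.0492), named after its value was seen.

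Markers of other cell types differed between the groups as well, those of immune cells and fibroblasts upwards and those of tubules downwards. For reference, 6.72% of all genes were called higher and 0.427% lower in KO_antimiR21 against WT. In KO_PBS against WT these shares were 14.6% and 9.85%. The 6 macrophage markers summed to 289 to 568 CPM in KO_antimiR21, 568 to 718 CPM in KO_PBS and 157 to 188 CPM in WT. Of these markers, 5 of 6 rose in each knockout group. Most of the WT sum was Csf1r, at 124 to 148 CPM, which was the marker not called. Its log2 fold change was 0.08 in KO_antimiR21 and 0.29 in KO_PBS, each against WT. The 4 T cell markers summed to 5.13 to 12.1 CPM in KO_antimiR21, 7.73 to 10.9 CPM in KO_PBS and 1.73 to 2.73 CPM in WT, and 4 of 4 rose in each. The 3 fibroblast markers summed to 260 to 677 CPM in KO_antimiR21, 1084 to 1287 CPM in KO_PBS and 124 to 161 CPM in WT, with 2 of 3 called in KO_antimiR21 and 3 of 3 in KO_PBS. The 5 proximal tubule markers summed to 2379 to 5179 CPM in KO_antimiR21, 966 to 3371 CPM in KO_PBS and 6505 to 10490 CPM in WT, and edgeR called 0 of them in KO_antimiR21 (3 at an unadjusted p under 0.05) and 3 lower in KO_PBS. In KO_PBS against WT, Slc12a1, 1 of 3 markers for the thick limb and distal tubule, and Aqp3 and Atp6v1b1, 2 of 3 for the collecting duct, were lower too, with medians of -1.37 and -1.14, and in KO_antimiR21 against WT 0 of either were called (1 and 3 at an unadjusted p under 0.05). None of the 3 podocyte and 3 endothelium markers was called in either comparison (edgeR, with 1 endothelium marker at an unadjusted p under 0.05, in KO_antimiR21). Their part in the levels of the kinesins was not tested. In whole kidney, more cells of a type and more RNA per cell cannot be told apart.

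The transport kinesins split differently. Kif1a and Kif21b rose in both knockout groups, Kifc2 fell in KO_PBS, and the other 11 were called in no comparison, with log2 fold changes between -0.34 and 0.12 in KO_antimiR21 and between -0.46 and 0.19 in KO_PBS, each against WT. Kif1a, known in neurons for carrying the precursors of synaptic vesicles, had 1.63, 3.32 and 1.43 CPM in KO_antimiR21 1, 2 and 3, 3.75, 4.41 and 4.88 CPM in KO_PBS 1, 2 and 3, and 0.338, 0.361 and 0.322 CPM in WT 1, 2 and 3. The WT levels came from 8, 9 and 8 expected counts in WT 1, 2 and 3, so the fold changes against WT rest on few reads there. Kif1a was nearly the same in the 3 WT libraries and higher in every knockout library, and the KO_antimiR21 libraries all lay below the KO_PBS libraries. Its log2 change was 2.63 ± 0.38 in KO_antimiR21 against WT (edgeR adjusted p = 0.00539) and 3.66 ± 0.39 in KO_PBS against WT (edgeR adjusted p = 0.00135), which was the highest of all 37 kinesins in KO_PBS.

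Kif21b, which restrains microtubule growth and is best known from neurons, had 12.6, 13.9 and 4.63 CPM in KO_antimiR21 1, 2 and 3, 9.81, 11.4 and 15.7 CPM in KO_PBS 1, 2 and 3, and 2.24, 2.05 and 2.37 CPM in WT 1, 2 and 3. All knockout libraries lay above WT, with KO_antimiR21 3 well below the other 5. This gave log2 fold changes of 2.22 ± 0.40 in KO_antimiR21 against WT (edgeR adjusted p = 0.0108) and 2.47 ± 0.40 in KO_PBS against WT (edgeR adjusted p = 0.00360). Of the 4 tested neuron markers, 0 were called higher in either comparison with WT (edgeR), and their median log2 fold change was 0.06 in KO_antimiR21 and 0.26 in KO_PBS. Tubb3 was at 1.29 and Nefm at 0.94 in KO_PBS against WT, with 95% intervals of -0.36 to 2.94 and -0.83 to 2.72. The list (6 of 7 genes found, none at 0 in all libraries) summed to 7.67 to 10.9 CPM in KO_antimiR21, 7.43 to 8.35 CPM in KO_PBS and 11.2 to 18.8 CPM in WT, and most of that sum was Syp, which was lower in KO_PBS against WT (-1.24, edgeR adjusted p = 0.00747). The part of the macrophage, T cell and fibroblast markers given above was not tested for these genes either.

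Kifc2, a minus-end motor found in neurons, had 33.1, 14.9 and 23.6 CPM in KO_antimiR21 1, 2 and 3, 20.2, 15.7 and 17.1 CPM in KO_PBS 1, 2 and 3, and 30.7, 28.8 and 51.0 CPM in WT 1, 2 and 3. All KO_PBS libraries lay below all WT libraries, while KO_antimiR21 2 was the lowest library of all and KO_antimiR21 1 lay above WT 1 and WT 2. The fitted log2 change was -0.63 ± 0.31 in KO_antimiR21 against WT (edgeR adjusted p = 0.303) and -1.06 ± 0.31 in KO_PBS against WT (edgeR adjusted p = 0.0376). The call in KO_PBS was absent in 10 of 19 alternatives. Among these were the fits without WT 1 (edgeR adjusted p = 0.0591), WT 3 (-0.78, edgeR adjusted p = 0.108), KO_PBS 1 (0.0693), KO_PBS 2 (0.118), KO_PBS 3 (0.0863) and KO_antimiR21 3 (0.05002), and that with library size as the only scaling (-0.78, edgeR adjusted p = 0.0853).

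The 3 transport motors with the most counts were called in no comparison. Kif1c, a vesicle motor, had 189, 237 and 236 CPM in KO_antimiR21 1, 2 and 3, 214, 238 and 252 CPM in KO_PBS 1, 2 and 3, and 325, 255 and 259 CPM in WT 1, 2 and 3. Both knockout groups lay below WT with no overlap, as did 9.83% of all genes in KO_antimiR21, yet neither fold change passed, at -0.34 ± 0.16 in KO_antimiR21 against WT (edgeR adjusted p = 0.266) and -0.26 ± 0.16 in KO_PBS against WT (edgeR adjusted p = 0.278). Kifc3, a minus-end motor of epithelial cells, had 146, 164 and 151 CPM in KO_antimiR21 1, 2 and 3, 172, 155 and 158 CPM in KO_PBS 1, 2 and 3, and 166, 154 and 176 CPM in WT 1, 2 and 3. Its groups overlapped, and the 95% interval of its log2 fold change was -0.37 to 0.16 in KO_antimiR21 and -0.30 to 0.23 in KO_PBS, each against WT. Kif1b, which carries mitochondria and vesicle precursors, had 91.9, 126 and 120 CPM in KO_antimiR21 1, 2 and 3, 89.3, 103 and 129 CPM in KO_PBS 1, 2 and 3, and 134, 122 and 101 CPM in WT 1, 2 and 3, with overlapping groups and intervals of -0.50 to 0.34 in KO_antimiR21 and -0.57 to 0.27 in KO_PBS. A further symbol spelled KIF1B held 1.11 to 3.94 expected counts a library, and reads may have been split between it and Kif1b. Kif13a averaged 38.3 ± 5.74 CPM in KO_antimiR21, 36.2 ± 6.15 CPM in KO_PBS and 43.9 ± 1.81 CPM in WT, and Kif5c, a kinesin heavy chain of neurons, averaged 4.49 ± 1.41 CPM in KO_antimiR21, 4.33 ± 0.143 CPM in KO_PBS and 5.56 ± 0.262 CPM in WT (SD, n = 3 each). With Kif1c and Kifc2 these made 4 transport motors that were lower in all KO_PBS libraries than in all WT libraries, as were 20.5% of all genes.

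**Figure D3:**
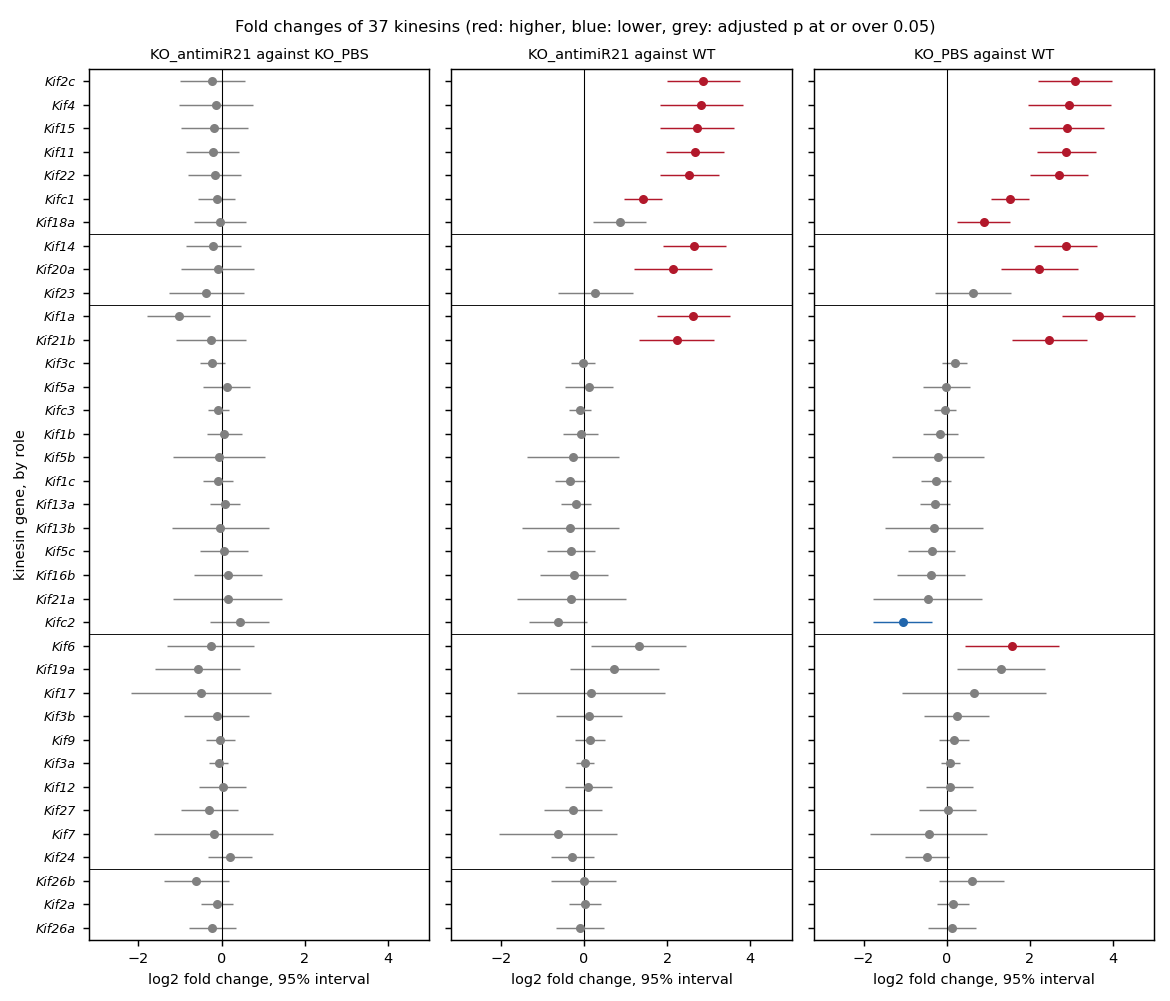
log2 fold change of each of the 37 kinesins with its 95% interval in KO_antimiR21 against KO_PBS (left), KO_antimiR21 against WT (middle) and KO_PBS against WT (right), coloured where called. In both comparisons with WT the calls are 8 mitotic motors, Kif1a and Kif21b, with Kif18a, Kifc2 and Kif6 added in KO_PBS. Kif23 is called in neither, and the left panel has no call.

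Several transport motors varied more within groups than between them. Kif5b, the kinesin heavy chain made in most cells, had 23.0, 86.4 and 72.2 CPM in KO_antimiR21 1, 2 and 3, 38.2, 67.1 and 83.4 CPM in KO_PBS 1, 2 and 3, and 89.99, 84.7 and 42.7 CPM in WT 1, 2 and 3. Kif21a, a close relative of Kif21b, had 9.66, 31.8 and 31.9 CPM in KO_antimiR21 1, 2 and 3, 11.5, 21.5 and 33.2 CPM in KO_PBS 1, 2 and 3, and 50.7, 26.0 and 14.3 CPM in WT 1, 2 and 3. Both were lowest in the same library of each group, KO_antimiR21 1, KO_PBS 1 and WT 3. Kif13b and Kif16b, a motor of early endosomes, had their lowest libraries there as well, and Kifc2 its highest in each of these 3. The genes of long transcripts (at least 6000 bases, 1433 genes) deviated the same way, with a median of -0.23 in KO_antimiR21 1, -0.19 in KO_PBS 1 and -0.12 in WT 3, relative to the group mean on the log2 scale. Genes of short transcripts (under 2000 bases, 2621 genes) had medians of 0.17, 0.09 and 0.10 in these libraries. The part of transcript length or RNA quality in the levels of these motors was not tested. Their intervals were wide accordingly: for Kif5b the 95% interval of the log2 fold change against WT was -1.37 to 0.85 in KO_antimiR21 and -1.31 to 0.90 in KO_PBS.

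**Figure D4:**
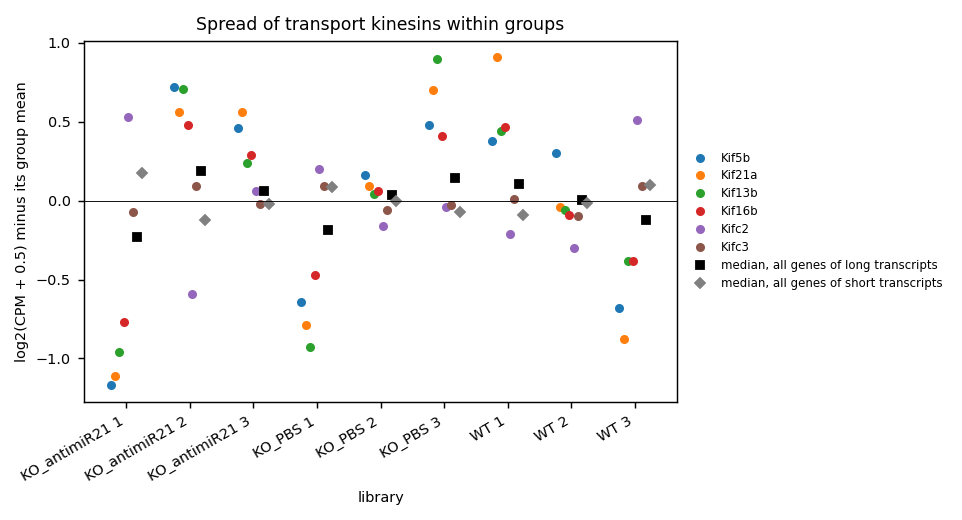
Deviation of log2(CPM + 0.5) from the mean of its own group for 6 transport kinesins in each library, beside the median of all genes of long transcripts (black squares) and short transcripts (grey diamonds). Kif5b, Kif21a, Kif13b and Kif16b lie below 0 in KO_antimiR21 1, KO_PBS 1 and WT 3, where Kifc2 lies above 0 and Kifc3 stays near 0.

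Light chains and adaptors that couple kinesins to cargo showed few calls. Of all genes, 14.6% were called higher and 9.85% lower in KO_PBS against WT. In KO_antimiR21 against WT these shares were 6.72% and 0.427%, and the short lists given here were not tested against them. Of 13 tested, 0 were called in KO_antimiR21 against WT (1 at an unadjusted p under 0.05), and 0 were higher and 1 lower in KO_PBS against WT, with medians of -0.14 in KO_antimiR21 and -0.12 in KO_PBS. The 1 was Rhot2, which ties motors to mitochondria (-0.45 in KO_PBS against WT, edgeR adjusted p = 0.0348). Klc4, a light chain, was at -0.49 (edgeR adjusted p = 0.0589) and Rhot1, the relative of Rhot2, at -0.35 (edgeR adjusted p = 0.0818). Of 15 subunits of cytoplasmic dynein and dynactin, the machinery that walks the other way, 0 were called in KO_antimiR21 (3 at an unadjusted p under 0.05), and 1 was higher and 1 lower in KO_PBS. Dync1i2, an intermediate chain, was at 0.47 (edgeR adjusted p = 0.0305), Dynll2, a light chain, at -1.08 (edgeR adjusted p = 0.00790) and Dynll1, its relative, at 0.61 (edgeR adjusted p = 0.0504), all in KO_PBS against WT.

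The motors of the cilium and centriole did not move as a block. In KO_antimiR21 against WT 0 of 10 were called by edgeR (1 at an unadjusted p under 0.05), with a median log2 fold change of 0.11, and in KO_PBS against WT 1 was higher, with a median of 0.13. Over these and the 3 other motors, DESeq2 and limma each called 0 in KO_antimiR21 and 2 in KO_PBS. Kif3a and Kif3b form, with Kifap3, the motor that drives trains outward along the cilium. Kif3a had 28.4, 29.5 and 29.2 CPM in KO_antimiR21 1, 2 and 3, 29.1, 31.4 and 30.6 CPM in KO_PBS 1, 2 and 3, and 29.8, 27.9 and 28.1 CPM in WT 1, 2 and 3, within a narrow range in all groups, and its log2 fold change was 0.02 ± 0.10 in KO_antimiR21 and 0.09 ± 0.10 in KO_PBS, each against WT. Kif3b had 23.6, 56.2 and 36.6 CPM in KO_antimiR21 1, 2 and 3, 33.9, 39.2 and 53.5 CPM in KO_PBS 1, 2 and 3, and 49.7, 32.7 and 24.8 CPM in WT 1, 2 and 3, with overlapping groups and the within-group spread seen in Kif5b. Kifap3 was at -0.01 ± 0.15 in KO_antimiR21 and 0.09 ± 0.15 in KO_PBS, each against WT. A list of 12 genes held those of the trains that this motor pulls and the dynein subunits Dync2h1 and Dync2li1. Of these 12, 0 were called in either comparison (edgeR, 0 at an unadjusted p under 0.05 in KO_antimiR21 and 4 in KO_PBS), with a median of -0.17 in each. In KO_PBS 7 of the 12 were lower in all libraries than in all WT libraries, as were 20.5% of all genes, and in KO_antimiR21 0 were. The 3 with the lowest p in KO_PBS were Ift172, Ift122 and Ift80, at -0.45, -0.54 and -0.41 (edgeR adjusted p = 0.0559, 0.0692 and 0.0693).

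Kif12, a candidate modifier of polycystic kidney disease in mice, had 459, 251 and 257 CPM in KO_antimiR21 1, 2 and 3, 346, 294 and 310 CPM in KO_PBS 1, 2 and 3, and 288, 253 and 358 CPM in WT 1, 2 and 3. KO_antimiR21 1 stood above all others, the groups overlapped, and the log2 fold change was 0.11 ± 0.25 in KO_antimiR21 and 0.08 ± 0.25 in KO_PBS, each against WT. Kif6, a motor of beating cilia, was the 1 gene of this role that edgeR called, and it lies under the level at which values were to be printed. It had 0.388, 0.999 and 0.735 CPM in KO_antimiR21 1, 2 and 3, 1.01, 0.734 and 0.808 CPM in KO_PBS 1, 2 and 3, and 0.127, 0.441 and 0.282 CPM in WT 1, 2 and 3, with overlap between KO_antimiR21 and WT. The call in KO_PBS (1.57 ± 0.50 on the log2 scale, edgeR adjusted p = 0.0489) was absent in 13 of 19 alternatives, and KO_antimiR21 against WT gave 1.31 ± 0.50 (edgeR adjusted p = 0.185). Beside it, Foxj1, the master regulator of beating cilia, was higher by 3.43 in KO_antimiR21 and by 4.33 in KO_PBS, each against WT on the log2 scale, and the other of the 2 ciliated cell markers found, Dnaic1, was at -0.81 in KO_antimiR21 and -0.88 in KO_PBS and was not called. The remaining motors of this role (Kif7, Kif9, Kif17, Kif19a, Kif24 and Kif27) had log2 fold changes between -0.63 and 0.72 in KO_antimiR21 and between -0.48 and 1.30 in KO_PBS, each against WT. Of these, Kif19a, which trims ciliary tips, and Kif9 were higher in all KO_PBS libraries than in all WT libraries, as were 22.6% of all genes. Kif19a was at 1.30 ± 0.47 in KO_PBS against WT (edgeR adjusted p = 0.0747) and was called with DESeq2 (1.31, adjusted p = 0.0483), limma (1.48, adjusted p = 0.0446), edgeR scaled by library size (1.57, adjusted p = 0.0429) and edgeR without WT 3 (2.06, adjusted p = 0.0148).

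The 3 other motors were called in no comparison. Kif2a, which shortens microtubules in neurons and at spindle poles, had 16.0, 17.9 and 17.6 CPM in KO_antimiR21 1, 2 and 3, 20.4, 19.2 and 16.4 CPM in KO_PBS 1, 2 and 3, and 14.5, 20.7 and 15.4 CPM in WT 1, 2 and 3. Kif26b, needed for the embryonic kidney in mice, had 3.88, 10.3 and 4.96 CPM in KO_antimiR21 1, 2 and 3, 9.24, 8.65 and 11.4 CPM in KO_PBS 1, 2 and 3, and 5.65, 6.30 and 7.36 CPM in WT 1, 2 and 3, and Kif26a, its relative, had 3.92, 4.64 and 6.21 CPM in KO_antimiR21 1, 2 and 3, 4.25, 6.11 and 6.90 CPM in KO_PBS 1, 2 and 3, and 5.65, 5.01 and 5.11 CPM in WT 1, 2 and 3. Kif26b lay higher in all KO_PBS libraries than in all WT libraries, but its log2 fold change of 0.60 ± 0.34 did not pass (edgeR adjusted p = 0.245).

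The comparison of the 2 knockout groups asks what the inhibitor changed. In KO_antimiR21 against KO_PBS edgeR called 0 of 37 kinesins and 0% of all genes, with 1 kinesin and 6.95% of genes at an unadjusted p under 0.05. DESeq2 called 0 kinesins and 18 genes, and limma 0 of either. The mitotic motors had a median log2 fold change of -0.17, against -0.01 for all genes, and all 10 estimates lay between -0.36 and -0.04. These estimates share KO_antimiR21 3, the lowest library of its group for 10 of 10 mitotic motors. Leaving out 1 library, their median ran from -0.26 (without KO_antimiR21 2) to 0.035 (without KO_antimiR21 3). The libraries of the 2 groups overlapped for each of the 10. For Kif11 the 95% interval was -0.85 to 0.43, for Kifc1 -0.56 to 0.33 and for Kif20a -0.97 to 0.79. Within the libraries of code L5, which leave KO_PBS 3 alone in its group, the median of the mitotic motors was -0.25.

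The 1 kinesin at an unadjusted p under 0.05 was Kif1a, at 1.63, 3.32 and 1.43 CPM in KO_antimiR21 and 3.75, 4.41 and 4.88 CPM in KO_PBS. The groups did not overlap, and the log2 fold change was -1.03 ± 0.34 (edgeR adjusted p = 0.707, 95% interval -1.78 to -0.27). KO_antimiR21 2, at 3.32 CPM, was the library of its group nearest to KO_PBS. In the fit without that library the log2 fold change was -1.48 (edgeR adjusted p = 0.134), which was not called either. Kif3c and Kif19a were the other kinesins lower in KO_antimiR21 with no overlap, where 6.85% of all genes were so, and 0 kinesins were higher with no overlap, against 3.83% of genes. Their log2 fold changes were -0.22 ± 0.13 for Kif3c and -0.58 ± 0.45 for Kif19a. The transport motors had a median of 0.01, and Kifc2 had the highest value, 0.43 ± 0.31.

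The microRNA that the inhibitor binds was searched for in the kinesins. Its mature sequence is shown with the seed, bases 2 to 8, in capitals, followed by the only kinesin sites that match it, 30 bases each with the 7 matching bases in capitals.
mmu-miR-21a-5p (chr11:86584120-86584141, minus strand, RefSeq, GRCm38.p6): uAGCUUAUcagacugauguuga
Kif14 site (GENCODE vM21 transcript): cccttagccaaATAAGCTgtcaccctgaag
Kif2a site (GENCODE vM21 transcript): gttggaagaaaATAAGCTgagaaagcctag
The site ATAAGCT was present in the longest 3' untranslated region of 2 of 37 kinesins (5.41%), against 7.81% of the 14179 tested genes with such a region. The longer site ATAAGCTA was present in 0 of 37 kinesins and in 2.37% of those genes. In KO_antimiR21 against KO_PBS the log2 fold change was -0.21 ± 0.29 for Kif14 and -0.12 ± 0.17 for Kif2a, and neither was called.

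Levels can be compared between motors when divided by transcript length. By mean CPM per kilobase of the longest annotated transcript, Kif12 was highest, at 143 in KO_antimiR21, 140 in KO_PBS and 133 in WT. Kifc3 followed, at 45.4 in KO_antimiR21, 47.8 in KO_PBS and 48.8 in WT, and Kif1c at 33.0 in KO_antimiR21, 35.1 in KO_PBS and 41.8 in WT. Of the mitotic motors Kif23 was highest in WT, with 3.64 in KO_antimiR21, 4.68 in KO_PBS and 3.01 in WT. Kif14 was the lowest mitotic motor, with 0.242 in KO_antimiR21, 0.279 in KO_PBS and 0.0379 in WT. Kif1a was close to Kif14 in KO_antimiR21, at 0.259, and in WT, at 0.0414, but higher in KO_PBS, at 0.530. In both knockout groups Kifc1 was the highest mitotic motor, at 4.76 in KO_antimiR21, 5.15 in KO_PBS and 1.79 in WT, above the transport motors Kif3c and Kif13b but below Kif5b, at 10.03 in KO_antimiR21, 10.4 in KO_PBS and 12.0 in WT. The order used 1 transcript length per gene, and the isoform made in kidney can be shorter.

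**Figure D5:**
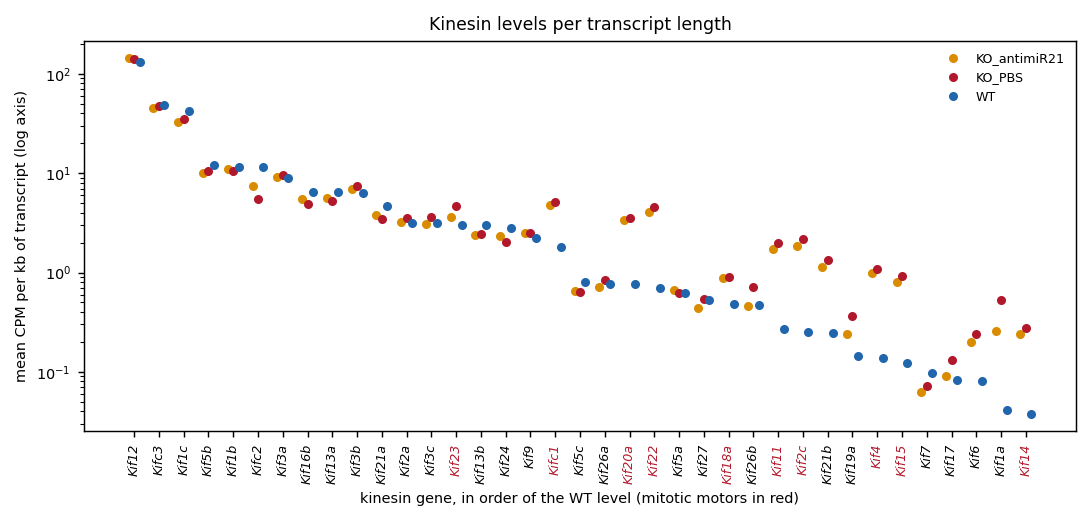
Mean CPM per kilobase of transcript (log axis) of each kinesin in KO_antimiR21, KO_PBS and WT, ordered by the WT level, with the names of mitotic motors in red. Kif12, Kifc3 and Kif1c lie at the top in every group, and the knockout means of the 10 mitotic motors lie above their WT means, with the smallest ratio for Kif23.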

How the data were processed

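Total RNA of whole kidney (150 ng) went into TruSeq RNA v2 libraries, per the labels' protocols, and the series text names the HiSeq 2000. The authors deposited RSEM expected counts per gene symbol, made with Bowtie against mm9, per the submitters' processing notes. Versions, annotation and strand are not given in the sources used here, and reads of overlapping or antisense genes cannot be told apart. Expected counts are estimates, and RSEM shares reads between near-identical copies. A log2 matrix over the same libraries was deposited as well, and the submitters' processing notes list limma.

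Expected counts were rounded, and filterByExpr of edgeR 4.0.16 (R 4.3.3) kept 17315 of 22637 symbols. All 9 libraries entered 1 edgeR quasi-likelihood fit with 3 group means and TMM scaling. Groups and replicate numbers came from the titles. Within each comparison the two-sided p-values were adjusted by Benjamini-Hochberg. Alternatives were RLE or library-size scaling, no filter, DESeq2 1.42.0, limma 3.58.1 on the log2 matrix, 2 groups only, a replicate block, sex as a covariate, male libraries, 1 library code, and leaving out each library. The fit was tested on simulated data.

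Values per library were printed for called kinesins whose mean log2 CPM was 0 or more (at most 6 a role, by lowest p) and for up to 3 uncalled kinesins a role by highest mean CPM. Of each companion list the 3 genes with the lowest p in KO_PBS against WT were named. Members, roles and lists were chosen with earlier results of these data known. Sex was called male at 10 or more summed CPM of the Y-linked Ddx3y, Eif2s3y, Jarid1d and Uty. Transcript lengths and 3' untranslated regions came from GENCODE vM21 and promoters and the microRNA from RefSeq, on GRCm38.p6 and not on the build of the counts. Between replicates of a group the counts differed by a chi-square of 31.3 to 140 per gene, so none was a copy. Figures were drawn with matplotlib 3.10.9.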

Additional observations from a re-analysis of the deposited data

How the results depend on the processing

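Among called kinesins no sign changed under any alternative. In KO_PBS against WT, the called genes were 4226 and the called mitotic motors 9. With sex as a covariate or among male libraries, calls in both comparisons with WT were 0 for all genes, for mitotic motors, for higher and lower transport motors and for other kinesins. The median of the mitotic motors, each against WT, was then 2.14 in KO_antimiR21 and 2.30 in KO_PBS with the covariate, and 2.18 in KO_antimiR21 and 2.32 in KO_PBS among males. Either setting sets the knockout groups against WT 2 alone. Scaling by library size alone, the median of the mitotic motors in KO_PBS was 3.06 and of the transport motors 0.047, while the median of all genes moved to 0.25, lower transport calls were 0 and other kinesin calls 2. Other kinesin calls in KO_PBS were 2 with DESeq2 or limma and 0 with no filter, 2 groups only, the block or 1 code. Lower transport calls were 0 with 1 code and stayed at 1 in the other 5 of these fits. DESeq2 called 18 genes between the knockout groups and 2011 in KO_antimiR21 against WT, and the fit of 2 groups called 706 there. Without 1 library, called genes ran from 667 (without WT 3) to 1602 in KO_antimiR21 against WT and from 2423 (without KO_PBS 1) to 4332 in KO_PBS against WT, lower transport calls and other kinesin calls in KO_PBS each from 0 to 1, the mitotic median in KO_PBS from 2.54 to 2.95 and the transport median in KO_antimiR21 against WT from -0.31 to 0.021 (without KO_antimiR21 1).

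In no set of 3 pairs did all same-numbered libraries deviate together, so the numbers were not taken as pairs. The r values were -0.38, 0.19 and -0.45 between KO_PBS and WT and -0.30, 0.01 and -0.26 between KO_antimiR21 and WT. Between the knockout groups they were 0.49, -0.14 and 0.23. With the replicate block 923 genes and 8 mitotic motors were called in KO_antimiR21 against WT, 3205 genes and 8 mitotic motors in KO_PBS against WT, and 0 of either between the knockout groups. With 3 libraries a group, low motors such as Kif6, Kif7 and Kif17 had wide intervals, and a kinesin that was not called is not shown to be equal.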

Other observations

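Kinesins that the tables list under other names lay outside the rule. Kif18b, a mitotic motor that shortens spindle microtubules, is listed as 3000004C01Rik, per the synonyms of RefSeq. It had 2.72, 3.32 and 1.69 CPM in KO_antimiR21 1, 2 and 3, 2.47, 2.27 and 4.26 CPM in KO_PBS 1, 2 and 3, and 0.253, 0.401 and 0.282 CPM in WT 1, 2 and 3. The log2 fold change was 3.03 ± 0.41 in KO_antimiR21 against WT (edgeR adjusted p = 0.00458) and 3.24 ± 0.41 in KO_PBS against WT (edgeR adjusted p = 0.00166). Cenpe, the kinesin that holds chromosomes at the kinetochore, was already counted above among the partners of the mitotic motors. It was called in KO_PBS (1.84 ± 0.47, edgeR adjusted p = 0.0226) and not in KO_antimiR21 (1.73 ± 0.47, edgeR adjusted p = 0.0622), each against WT.

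Kif20b, a motor of cytokinesis, is listed as Mphosph1. It had 9.74, 10.8 and 20.9 CPM in KO_antimiR21 1, 2 and 3, 6.96, 9.31 and 8.91 CPM in KO_PBS 1, 2 and 3, and 3.59, 41.9 and 3.26 CPM in WT 1, 2 and 3. WT 2 stood above every other library, while the other 2 WT libraries lay below all knockout libraries, and the gene was called in no comparison.

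The cell division marker Mki67 was also counted above among the partners of the mitotic motors. It had 58.7, 58.7 and 32.6 CPM in KO_antimiR21 1, 2 and 3, 43.2, 53.2 and 51.4 CPM in KO_PBS 1, 2 and 3, and 4.51, 7.10 and 2.82 CPM in WT 1, 2 and 3. KO_antimiR21 3 was its lowest knockout library, as it was for 10 of 10 mitotic kinesins within its group, and WT 2 was its highest WT library.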
